A study of Rattus norvegicus with 3 samples.

Results

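B lineage cells of the injured rat spinal cord were examined in single-cell RNA profiles of tissue taken around the injury. They were selected on measured transcripts: a cell had at least 1 unique molecular identifier (UMI, a counted RNA molecule) of Cd79a and at least 1 of Cd79b, no UMI of Csf1r, none of Cd3e, Cd3d or Cd3g, and fewer than 100 UMIs of S100a8 and S100a9 together per 10000. The rule was applied to the 5815 cells in which 200 or more genes were detected and mitochondrial UMIs did not exceed 20%, and 68 of them met it. Cd79a and Cd79b encode the signalling chains of the B cell antigen receptor, whereas Csf1r, the Cd3 genes and S100a8 with S100a9 mark macrophages, T cells and neutrophils.

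The series held 3 libraries from wild type rats aged 6 to 8 weeks, 1 per treatment, in which MPG-HD, G-HD or PBS had been injected at the site of injury. MPG-HD and G-HD are hydrogels; the labels state neither their composition nor the rat strain or the time after injury. PBS, a buffered saline, served as the reference for both. The labels give 5 animals per condition and 1 library per condition, so that animals cannot be told apart within a library. A 5-mm section centred on the lesion was digested enzymatically, strained and treated to lyse erythrocytes before 10x Genomics 3′ profiling, and no step of the protocol selected immune cells. The passing cells numbered 2091 in MPG-HD, 2347 in G-HD and 1377 in PBS, with 23577932 UMIs in MPG-HD, 25849254 in G-HD and 15855840 in PBS. With 1 library per treatment there was no replicate check, no test was possible and no p-value was computed; all intervals are 95% intervals that cover counting error only. The lineage was chosen for description with its uneven distribution over the libraries known.

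B cells arise in the bone marrow through ordered stages. Progenitors rearrange their immunoglobulin heavy chain genes with the recombinase Rag1 and Rag2 and the nucleotide-adding enzyme Dntt, and precursors then pair the heavy chain with a surrogate light chain made from Igll1 and the Vpreb proteins. Immature cells leave the marrow, and mature B cells carry major histocompatibility complex class II molecules, the membrane protein Ms4a1 (CD20), and receptors for survival and homing signals, while plasma cells secrete antibody. The healthy spinal cord tissue itself holds few B cells, and injury can bring more from the blood.

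B lineage cells made up a larger share of the G-HD library than of the other 2. They were 7 of 2091 cells in MPG-HD (0.335%, exact Clopper-Pearson interval 0.135 to 0.689), 55 of 2347 cells in G-HD (2.34%, 1.77 to 3.04) and 6 of 1377 cells in PBS (0.436%, 0.160 to 0.946). The G-HD interval did not overlap either of the others, which overlapped each other. The share in MPG-HD was 0.768 times that in PBS (0.221 to 2.77), the share in G-HD was 5.38 times that in PBS (2.32 to 15.3), and the share in MPG-HD was 0.143 times that in G-HD (0.0549 to 0.315). Shares of other cells are given beside it. Cells of the neutrophil lineage, with at least 100 UMIs of S100a8 and S100a9 per 10000, were 1.34% of MPG-HD, 5.71% of G-HD and 1.89% of PBS cells. Their share in G-HD was 3.02 times that in PBS (1.98 to 4.797), and the ratio of MPG-HD to PBS included equality (0.401 to 1.26). Their share in MPG-HD was 0.235 times that in G-HD (0.150 to 0.354). Granulocyte precursors, with at least 3 UMIs of Elane, Mpo, Prtn3 and Ctsg together, numbered 0 in MPG-HD, 7 in G-HD and 0 in PBS. This left equality of G-HD and PBS within the interval, whereas the ratio of MPG-HD to G-HD excluded it (0, 0 to 0.779). T cells with at least 2 Cd3 UMIs and no Cd79a or Cd79b were 2.63% of MPG-HD, 4.43% of G-HD and 3.20% of PBS cells. The T cell ratios of G-HD to PBS (1.39, 0.966 to 2.02) and of MPG-HD to PBS (0.823, 0.544 to 1.25) included equality, whereas that of MPG-HD to G-HD did not (0.594, 0.420 to 0.831). Oligodendrocytes with Mog and Mag were 17.8% of MPG-HD, 5.92% of G-HD and 13.9% of PBS cells. Their share in G-HD was 0.427 times that in PBS (0.341 to 0.534), and their share in MPG-HD was 1.28 times that in PBS (1.07 to 1.54). More B lineage cells and fewer other cells recovered from the tissue cannot be told apart in shares.

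**Figure D1:**
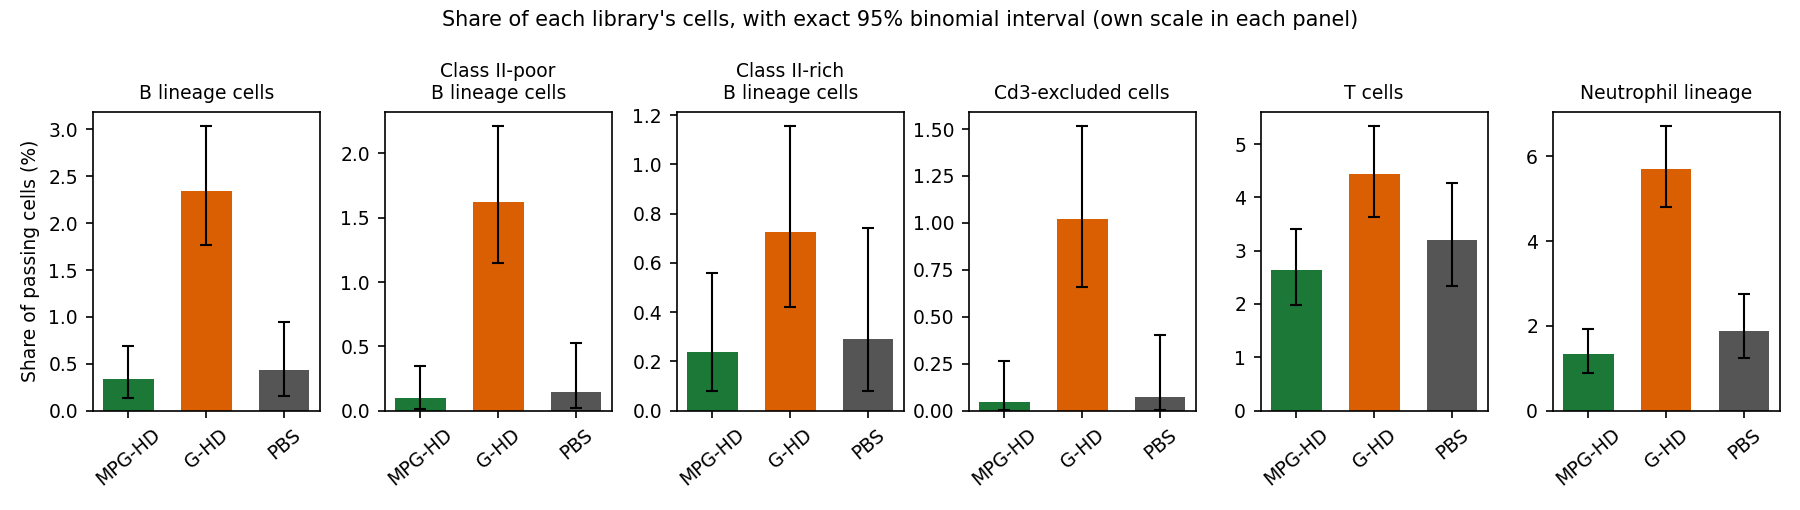
Share of passing cells (%, one scale per panel) in MPG-HD, G-HD and PBS for B lineage cells, their class II-poor and class II-rich groups (fewer than 3, or 3 and more, UMIs of 4 class II genes), cells kept out by Cd3 genes alone, T cells and the neutrophil lineage; bars are shares of 1 library and lines are exact 95% binomial intervals. B lineage cells stood at 2.34% in G-HD, with intervals in MPG-HD and PBS that end below 1.77%, the lower bound in G-HD.

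The thresholds of the rule mattered unequally. Of 96 passing cells with both Cd79a and Cd79b, 2 carried Csf1r and 27 carried a Cd3 UMI, 1 of them both. The S100a8 and S100a9 limit removed none, since the highest member stood at 8.01 UMIs per 10000, whereas the lowest cell beyond the limit stood at 107 and had not both Cd79 genes. Cd79a alone was found in 12 cells and Cd79b alone in 42. In 28 of the 68 members Cd79a rested on 1 UMI, and in 1 member both genes did. The cells kept out by Cd3 genes alone numbered 26, with 1 in MPG-HD, 24 in G-HD and 1 in PBS, and are described further on.

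The members were small libraries. Their median depth was 1874 UMIs in MPG-HD, 1734 in G-HD and 1554 in PBS, against 10465 in MPG-HD, 9528 in G-HD and 10311 in PBS among the other passing cells. The deepest member held 45.7% of the members' UMIs in MPG-HD, 7.19% in G-HD and 65.6% in PBS. Members with few UMIs can miss a transcript that they hold, so a cell without a UMI is not a cell without the gene. Of 6450 different barcodes, 21 occurred in more than 1 library; 1 member had such a barcode, and none shared it with another member.

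Further B cell genes checked the label. Fcrla, an intracellular Fc receptor-like protein of B cells, had a UMI in 61 of 68 members, Spib, an Ets transcription factor, in 53, the inhibitory receptor Cd72 in 47, Vpreb3, a chaperone-like relative of the surrogate light chain, in 45, and the coactivator Pou2af1 in 31. Ebf1, which specifies the lineage, was found in 25 and Ms4a1 in 17. In 702 oligodendrocytes, which should lack these genes and had a median of 12712 UMIs against 1732.5 in members, Fcrla was found in 14 cells, Cd72 in 2, Vpreb3 in 1, Ebf1 in 3, and Spib, Pou2af1 and Ms4a1 in 0. Pax5, the third marker given for the lineage, had 0 UMIs in all 5815 cells and could not check it. Of genes that mark other cells and were not used in the rule, the T cell adaptor Lat was at 0 in every member, Cd2 had 1 UMI in 1 PBS member, and the granulocyte precursor list had 1 UMI in all. The neutrophil list had 17 UMIs, with 4 of its 10 genes at 0. The macrophage list had 622 UMIs over the members, with 3 of its 14 genes at 0. Its Lyz2 was found in 39 members. Counts of the neutrophil and macrophage lists were taken over the whole lists, with any gene of the rule left in. The part of free RNA in these UMIs was not tested.

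Immunoglobulin genes were covered thinly. Igh-6 and Ighg1 had 0 UMIs, and the other constant region genes looked for had no feature under their symbol, so they could not be measured by name. Features without a gene name in the deposited tables were left unnamed. The feature ENSRNOG00000034190 had a UMI in 67 of 68 members, against 22 of 702 oligodendrocytes and 19 of 203 T cells, and ENSRNOG00000058590 had a UMI in 31 members. No identity is given to either.

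Against all 5747 other passing cells, 713 genes were at least 2-fold higher in members (6% of 11875 measured genes) and 1187 were at least 2-fold lower (10%), where a gene was measured if both groups together held 50 UMIs. Ratios are on the log2 scale of summed counts scaled to the same total (CPM) with 20 CPM added, and the median over measured genes was -0.11. The rule chose the members by genes of this contrast, so these counts describe the cells and support nothing further. Beyond the genes of the rule, the highest ratios among genes found in at least 20% of members belonged to Mzb1, a chaperone of immunoglobulin assembly (log2 ratio 5.89), Fcrla (5.73), Spib (5.46), Vpreb3 (5.43), the sialoglycoprotein Cd24 (4.75), Cd72 (4.74) and Fcmr, the receptor for IgM (4.72). The Mzb1 value rested on 1 PBS cell with 198 of its 247 UMIs. The next were Plac8 (4.48), Dus2 (4.33), Niban3 (4.26), Cd69 (4.24), Ptprcap (4.08), Pou2af1 (3.92), Rhoh (3.63), Tifa (3.57), the invariant chain Cd74 (3.505), Ebf1 (3.45), H1f4 (3.38), B3gnt2 (3.36) and Akap12 (3.20). Cd69 is an early activation antigen and retention factor of lymphocytes, Rhoh a GTPase of blood cells and Tifa an adaptor of nuclear factor kappa B signalling.

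By list, 9 of 10 measured B identity genes that the rule did not use were at least 2-fold higher in members and 0 were lower; their median was 3.69 on the log2 scale. Among 15 measured transcription factors of early B cells, 8 were higher and 0 lower, with a median of 1.90. These were Spib, Pou2af1, Ebf1, Irf4 (3.12), Tcf3 (3.06), Ikzf3 (3.03), Bach2 (2.09) and Foxo1 (1.90). Of 16 measured genes of antigen receptor signalling, 9 were higher and 1, Cd81 at -1.42, was lower; the kinases Blk (2.81), Syk (2.22) and Lyn (1.57) and the adaptor Blnk (1.51) were among the higher ones. Of 12 measured homing and adhesion genes, 6 were higher, led by Cd24, the chemokine receptors Cxcr4 (3.16) and Ccr6 (2.94) and the sphingosine phosphate receptor S1pr1 (1.85), and 1, the tetraspanin Cd9 at -4.65, was lower. Of 9 measured B cell cytokines, 0 were higher and 2, Ccl3 (-2.78) and Ccl4 (-4.02), were lower. Il10 and Il6, cytokines of regulatory and effector B cells, had 0 UMIs in the members. Of 4 measured germinal centre genes, 0 were past 2-fold in either direction. The whole list stood at 19.3 CPM in the other cells, so that with 20 CPM added none could be 2-fold lower.

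The members differed among themselves in class II genes. Counting UMIs of RT1-Da, RT1-Db1, RT1-Ba and RT1-Bb, which encode the rat class II chains, 38 of 68 members had none, 4 had 1 or 2, and 26 had 3 or more. The 42 cells with fewer than 3 UMIs are called class II-poor and the 26 others class II-rich, a division chosen after the values were seen. Median depth was 1667 UMIs in class II-poor and 2010 UMIs in class II-rich cells. Vpreb3 was found in 38 of 42 class II-poor cells and in 7 of 26 class II-rich cells, Ebf1 in 23 class II-poor and 2 class II-rich cells, and Cd24 in 35 class II-poor and 8 class II-rich cells. The recombinase gene Rag1 was found in 5 class II-poor cells and in 0 class II-rich cells. The order was the other way for Ms4a1, in 3 class II-poor and 14 class II-rich cells, for Fcmr, in 9 class II-poor and 23 class II-rich cells, and for the chemokine receptor Ccr6, in 1 class II-poor and 10 class II-rich cells. Thinned to 1000 UMIs per cell, Vpreb3 remained in 35 of 41 class II-poor and 7 of 26 class II-rich cells, and Ms4a1 in 3 class II-poor and 9 class II-rich cells.

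**Figure D2:**
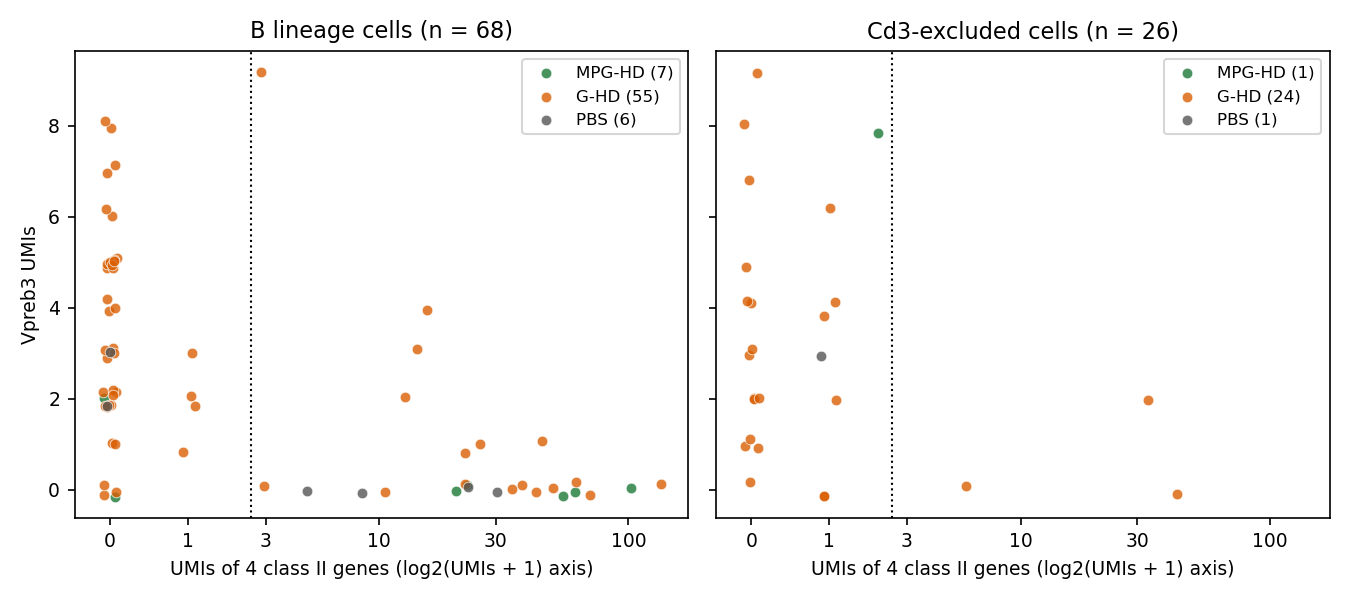
Vpreb3 UMIs (linear axis, jittered) against UMIs of 4 class II genes (log2(UMIs + 1) axis, jittered) in each of the 68 B lineage cells (left) and of the 26 cells kept out by Cd3 genes alone (right), coloured by library (MPG-HD, G-HD, PBS); the dotted line lies below 3 class II UMIs. Most cells with Vpreb3 lie left of the line, 38 of the 45 members with Vpreb3.

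The same order held within G-HD, the one library with enough cells to look. There Vpreb3 was found in 35 of 38 class II-poor cells (92.1%, 78.6 to 98.3) and in 7 of 17 class II-rich cells (41.2%, 18.4 to 67.1). Ms4a1 was found in 3 of 38 class II-poor cells (7.89%, 1.66 to 21.4) and in 9 of 17 class II-rich cells (52.9%, 27.8 to 77.0). In MPG-HD, Vpreb3 was found in 1 of 2 class II-poor and 0 of 5 class II-rich cells. In PBS it was found in 2 of 2 class II-poor and 0 of 4 class II-rich cells.

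Across genes, 67 of 401 measured genes were at least 2-fold higher in class II-poor than in class II-rich members (16.7%) and 26 were lower (6.48%), and the median over all 401 was 0.14. Tifa was highest in class II-poor cells, with 184 UMIs in 40 cells against 9 UMIs in 3 cells (log2 ratio 4.12). Then came Ezh2, the histone methyltransferase of Polycomb (3.85, 66 UMIs against 3), and the tubulin-binding protein Stmn1 (3.41), whose 154 UMIs lay in 10 class II-poor cells, 58 of them in 1 cell. Akap12 (3.38), Prxl2a (2.74), Vpreb3 (2.64), the stress factor Ddit3 (2.64), Rhoh (2.60), Hmgb2 (2.47) and Jun (2.37) followed. Of the 323 Hmgb2 UMIs in class II-poor cells, 125 lay in 1 cell. Cd74, which was not used in the division, was lowest among the genes of this order. It had 109 UMIs in 21 class II-poor cells against 1038 UMIs in 25 class II-rich cells (log2 ratio -3.23). Rilpl2 (-2.83), Cyb561a3 (-2.60), Tagln2 (-2.46), Fxyd5 (-2.29), Nme2 (-2.11) and Fcmr (-2.04) followed. Mzb1 (-2.94), Pdia6 (-2.62) and Hsp90b1 (-2.37) were lower too, but 198 of 220, 49 of 58 and 104 of 121 of their class II-rich UMIs came from 1 PBS cell, described further on. Without that cell 59 of 374 genes were higher and 14 lower, and within G-HD alone 40 were higher and 12 lower.

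By list, 5 of 8 measured B identity genes were at least 2-fold higher in class II-poor cells and 0 were lower, with a median of 1.54. The 5 were Vpreb3, Blnk (2.29), Spib (2.01), Cd72 (1.65) and Fcrla (1.43). Cd79a and Cd79b of the rule are among the 8. Of 4 measured antigen receptor signalling genes, 3 were higher. The transcription factor Tcf3, a partner of Ebf1 in early B cells, was higher at 1.73. Cnp, best known as a myelin enzyme, was also higher in class II-poor cells (1.34) and was found in 48 of 68 members with 112 UMIs. In the same members the myelin gene Mbp had 34 UMIs. In oligodendrocytes Mbp had 97052 UMIs and Cnp 70400. The part of free RNA in the Cnp UMIs of members was not tested.

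The surplus of B lineage cells in G-HD lay mostly in the class II-poor group. Class II-poor cells were 2 of 2091 in MPG-HD (0.0956%, 0.0116 to 0.345), 38 of 2347 in G-HD (1.62%, 1.15 to 2.22) and 2 of 1377 in PBS (0.145%, 0.0176 to 0.524). Class II-rich cells were 5 in MPG-HD (0.239%, 0.0777 to 0.557), 17 in G-HD (0.724%, 0.422 to 1.16) and 4 in PBS (0.290%, 0.0792 to 0.742). The class II-poor share in G-HD was 11.1 times that in PBS (2.88 to 95.4), on 2 PBS cells, whereas the class II-rich share was 2.49 times that in PBS, with an interval that included equality (0.813 to 10.2). The class II-poor share in MPG-HD was 0.0591 times that in G-HD (0.00690 to 0.229), and the class II-rich share was 0.330 times that in G-HD (0.0952 to 0.932). The difference between the ratios of the 2 groups was not tested. Members with Vpreb3 numbered 1 in MPG-HD, 42 in G-HD and 2 in PBS, and members without it 6 in MPG-HD, 13 in G-HD and 4 in PBS. Among the members, 5 of 7 were class II-rich in MPG-HD, 17 of 55 in G-HD and 4 of 6 in PBS.

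**Figure D3:**
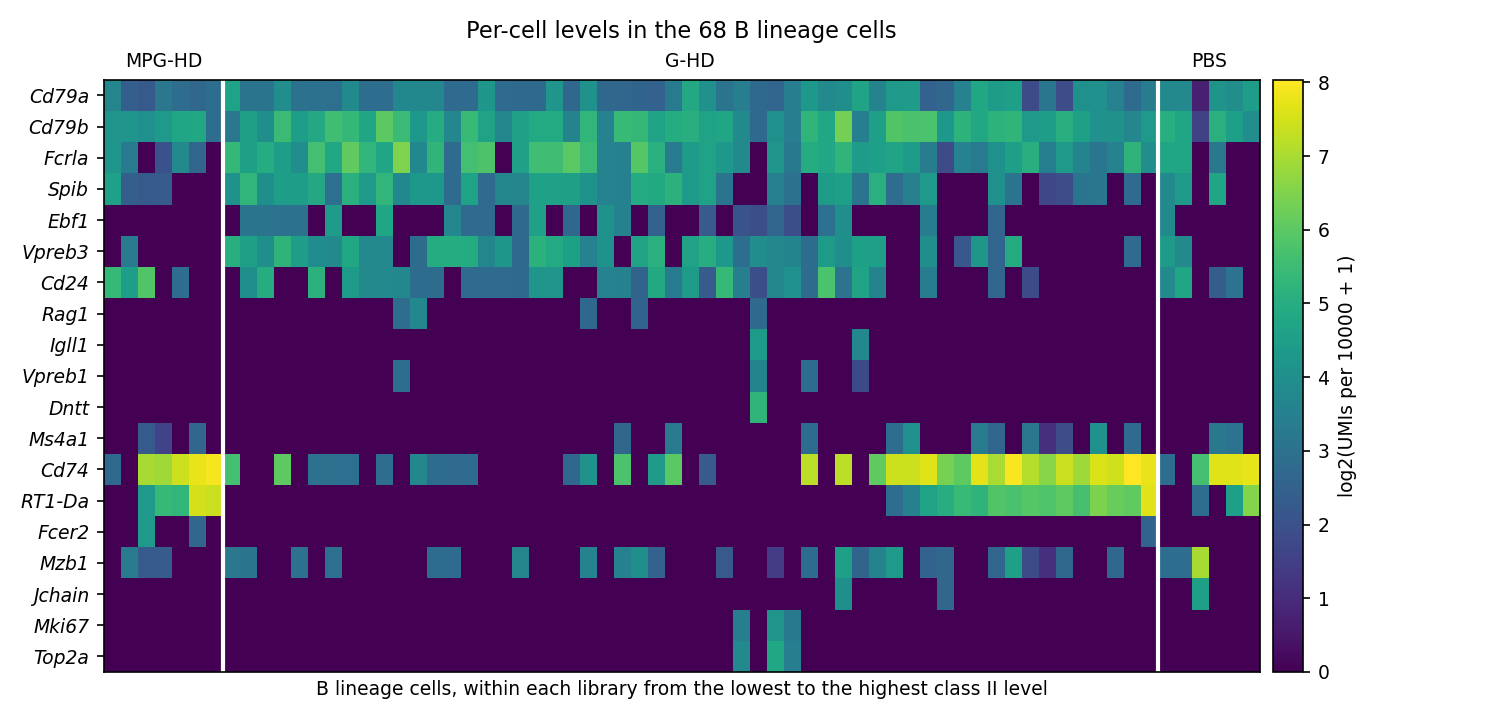
Levels of B lineage genes, as log2(UMIs per 10000 + 1), in each of the 68 B lineage cells, with libraries from left to right (MPG-HD, G-HD, PBS) and cells within a library ordered from the lowest to the highest class II level. Vpreb3, Ebf1 and Cd24 fill the left, class II-poor side of G-HD, and Cd74, RT1-Da and Ms4a1 its right side; Mzb1 and Jchain are brightest in 1 PBS cell.

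Upstream sequences are printed for 3 genes of these stages that hold a motif, namely Vpreb3, which separated class II-poor from class II-rich cells, Igll1, the surrogate light chain gene, and Spib, among the leading genes of all members. They are the 250 bases before the transcript start in RefSeq annotation of build GRCr8, 5′ to 3′ on the gene's strand, with motif matches in capitals: Vpreb3 at chr20:12718227-12718476 on the minus strand, Igll1 at chr11:97642937-97643186 on the plus strand and Spib at chr1:104161296-104161545 on the minus strand.
Vpreb3: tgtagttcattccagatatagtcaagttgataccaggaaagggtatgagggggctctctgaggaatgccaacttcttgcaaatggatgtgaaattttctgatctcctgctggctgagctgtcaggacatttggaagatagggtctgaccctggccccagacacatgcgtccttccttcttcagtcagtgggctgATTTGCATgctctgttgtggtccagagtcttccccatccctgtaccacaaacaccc
Igll1: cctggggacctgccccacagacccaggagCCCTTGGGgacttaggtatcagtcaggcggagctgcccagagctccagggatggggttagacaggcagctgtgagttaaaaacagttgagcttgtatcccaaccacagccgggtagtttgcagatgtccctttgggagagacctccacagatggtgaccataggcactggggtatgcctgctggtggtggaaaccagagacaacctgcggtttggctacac
Spib: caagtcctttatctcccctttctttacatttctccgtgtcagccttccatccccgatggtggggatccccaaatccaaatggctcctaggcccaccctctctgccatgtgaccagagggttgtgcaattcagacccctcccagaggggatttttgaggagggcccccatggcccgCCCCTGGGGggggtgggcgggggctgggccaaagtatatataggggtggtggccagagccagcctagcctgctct
Motifs searched on both strands were the octamer ATGCAAAT, an EBF-type core CCCNNGGG and a PU.1-type motif GAGGAAGT. Of 33469 such windows, 1.56% held the octamer, 10.8% the EBF-type core and 2.04% the PU.1-type motif. Vpreb3 held an octamer that starts 56 bases before the transcript start, Igll1 an EBF-type core at 221 bases, and Spib overlapping EBF-type cores at 75 and 74 bases. Of 17 genes looked up, 10 had a window in the RefSeq table; the other 7 of these, Cd79a, Rag1, Ebf1, Fcrla, Cd74, RT1-Da and Tifa, held none of the motifs. These matches describe the letters and are not binding sites.

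Transcripts of the earliest stages were rare in members and confined to G-HD cells. The early list (Dntt, Rag1, Rag2, Vpreb1, Vpreb2 and Igll1) had a UMI in 0 of 7 members of MPG-HD, which allows a share of up to 41.0%, in 8 of 55 of G-HD (14.5%, 6.50 to 26.7) and in 0 of 6 of PBS, which allows up to 45.9%. At 7 and 6 cells, a difference in this share between MPG-HD or PBS and G-HD was not detectable. Rag1 had 7 UMIs in 5 G-HD members, Rag2 3 UMIs in 3, Vpreb1 7 UMIs in 4 and Igll1 12 UMIs in 2. All 13 Dntt UMIs of the members came from 1 G-HD cell, which also held 7 Igll1, 4 Vpreb1 and 2 Rag1 UMIs. Dntt was also found in 563 of 5721 cells that were neither members nor kept out by Cd3 genes alone, whereas Rag1 was found in 9 of these.

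The late list held Fcer2 (CD23), Cr2 (CD21), Cxcr5, Tnfrsf13c (the receptor for the survival factor BAFF), Ccr6, Cd40 and Gpr183. It had a UMI in 4 of 7 members of MPG-HD (57.1%, 18.4 to 90.1), 22 of 55 of G-HD (40%, 27.02 to 54.1) and 3 of 6 of PBS (50%, 11.8 to 88.2), with overlapping intervals. Tnfrsf13c led with 18 members, then Ccr6 and Cd40 with 11 each. Fcer2 was found in 2 members of MPG-HD with 6 UMIs, in 1 of G-HD with 1 UMI and in 0 of PBS. The lymph node homing receptors Cxcr5 and Ccr7 had 0 UMIs in the members.

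Members with an early but no late UMI (6 cells, all G-HD) were set against members with a late but no early UMI (27 cells). Of 212 measured genes outside both lists, 8 were at least 2-fold higher in the early cells (3.77%) and 25 were lower (11.8%), and the median was -0.18. The early cells held 13129 UMIs and the late cells 75041. A gene found only in early cells therefore needed a higher CPM to be measured than one found only in late cells. At a minimum of 20 UMIs in both groups together, 57 genes were higher and 91 lower. Nothing is drawn from the balance of higher and lower genes, since it depends partly on this minimum. Higher among the 212 genes were Tifa (log2 ratio 3.22, 38 UMIs against 22), Jun (2.66), Vpreb3 (1.82), Cnp (1.55), Ypel3 (1.33), Fcrla (1.28) and Spib (1.11). Laptm5 (0.97), Btg1 (0.91) and Limd2 (0.86) came next and stayed under 2-fold. All 5 measured class II genes were lower, with a median of -3.61 when genes at 0 are placed at 3 UMIs. RT1-Da had 0 UMIs in the early cells against 331 in 19 of the late cells, at least 19.3-fold lower by a bound of 3 UMIs in the group. The same bound gave at least 12.2-fold for RT1-Db1, 8.98-fold for RT1-Ba, 5.25-fold for RT1-Bb and 5.31-fold for Fcmr. Cd74 was lower at -4.56, with 6 UMIs against 841. Ptprcap (-3.57), Ifi30 (-3.45), an enzyme of class II antigen processing, Pycard (-3.18) and Crip1 (-3.12) were lower as well. With the cells kept out by Cd3 genes included, 19 genes were higher and 31 lower, and the log2 ratios of Cnp (-0.13), Fcrla (-0.19) and Spib (-0.28) turned. Jun (0.63), Vpreb3 (0.67), Ypel3 (0.40) and Crip1 (-0.49) then stood under 2-fold as well.

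The cells kept out by Cd3 genes alone held more of the early transcripts than the members did. Their Cd3 signal rested on Cd3g, with 34 UMIs over all 26 cells; 22 of them had 1 Cd3 UMI and 4 had 2 or more, with a highest value of 7. Cd3d was found in 1 of these cells and Cd3e, Cd2 and Lat in 0. T cells had Cd3e in 183, Cd3d in 188 and Lat in 165 of 203 cells. Vpreb3 was found in 21 of the 26 cells and Ebf1 in 17, against 1 and 0 of the 203 T cells. Median depth was 2263 UMIs, against 1732.5 in members.

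Surrogate light chain genes were prominent there. Igll1 had 133 UMIs in 9 of 26 Cd3-excluded cells and 12 UMIs in 2 of 68 members (log2 ratio 3.94). Vpreb1 had 49 UMIs in 9 Cd3-excluded cells and 7 UMIs in 4 members (3.098). Vpreb2 had 50 UMIs in 6 cells and 0 in the members, at least 29.1-fold higher by a bound of 3 UMIs. Vpreb2 passed the minimum of 50 UMIs through the Cd3-excluded cells alone. A UMI of any of the 3 genes was found in 11 Cd3-excluded cells, 1 in MPG-HD, 10 in G-HD and 0 in PBS, and in 4 members. The single such cell of MPG-HD held 20 Igll1, 7 Vpreb1 and 3 Vpreb2 UMIs, the one cell outside G-HD, among members and Cd3-excluded cells, with an early transcript. Rag1 was found in 7 of the 26 cells and Dntt in 6, against Rag1 in 5 and Dntt in 1 of the 68 members.

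Over 728 measured genes, 28 were at least 2-fold higher in Cd3-excluded cells than in members (3.85%) and 28 were lower (3.85%), with a median of 0.07. All 3 measured genes of the early list were higher and all 5 measured class II genes were lower. Of 9 measured B identity genes, 0 were past 2-fold in either direction. Cd79a and Cd79b, which the rule requires in both groups, are among the 9. RT1-Ba had a log2 ratio of -3.05, RT1-Da -2.44, RT1-Db1 -2.36, RT1-Bb -1.89 and Cd74 -1.88. One G-HD cell of this group carried 171 of the group's 173 UMIs of Schwann cell and fibroblast genes, and another held 20979 UMIs and 76 of the 232 surrogate light chain UMIs. With these cells added, B lineage cells were 0.383% of MPG-HD, 3.37% of G-HD and 0.508% of PBS cells, and the share with an early list UMI was 24.5% of 94 cells in place of 11.8% of 68.

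**Figure D4:**
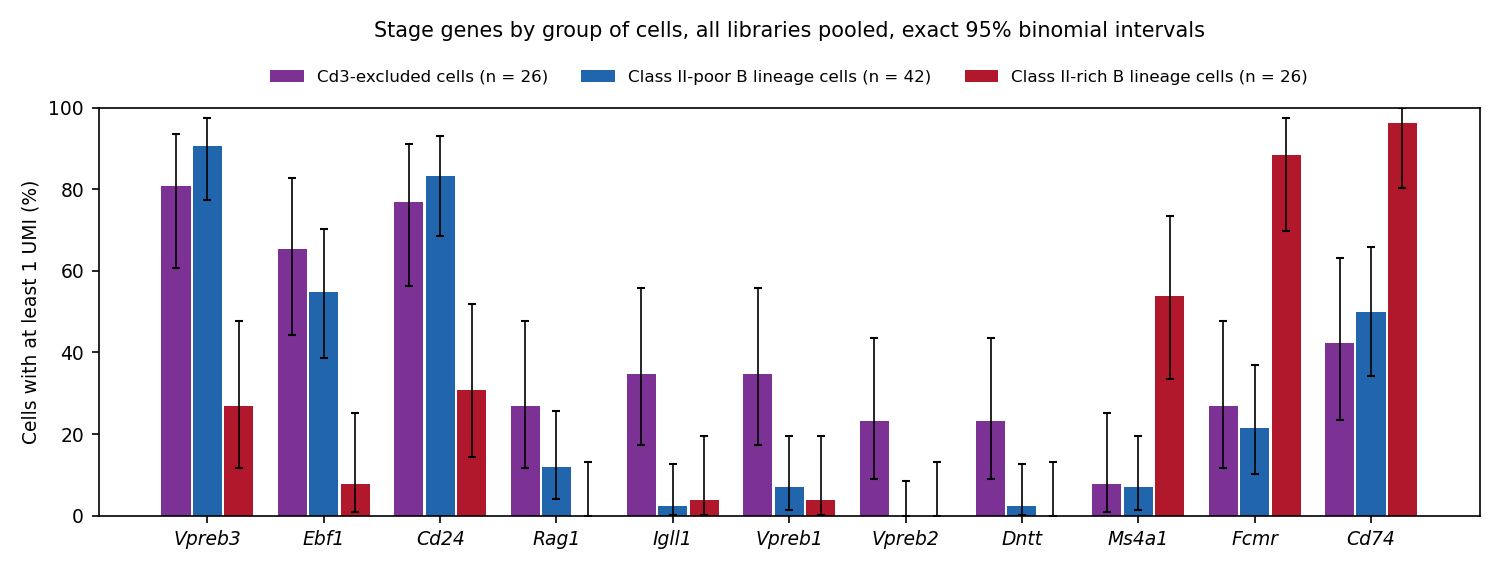
Share of cells with at least 1 UMI (%) of stage genes in Cd3-excluded cells (n = 26), class II-poor (n = 42) and class II-rich (n = 26) B lineage cells, libraries pooled; lines are exact 95% binomial intervals. Vpreb3 and Ebf1 are frequent in the first 2 groups, Igll1 and Vpreb2 are most frequent in Cd3-excluded cells, and Ms4a1, Fcmr and Cd74 in class II-rich cells.

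Cell cycle transcripts were counted as UMIs of a G2/M and an S phase list. At least 3 UMIs of the G2/M list were found in 1 of 7 members of MPG-HD, 5 of 55 of G-HD (9.09%, 3.02 to 19.95) and 0 of 6 of PBS. At least 3 UMIs of the S list were found in 1 member of MPG-HD, 8 of G-HD and 0 of PBS. Mki67 and Top2a, markers of dividing cells, had 19 and 27 UMIs, all in 3 G-HD members. The 3 members with the most G2/M UMIs held 150 of the 181 in all. Unthinned, 8.82% of all members had 3 UMIs of the G2/M list and 13.2% of the S list; after thinning to 1000 UMIs per cell each share was 4.48% (3 of 67 cells). In oligodendrocytes, at a median of 12712 UMIs against 1732.5 in members, 3 or more UMIs were found in 44.0% for the G2/M list and 56.8% for the S list. Thinned to 1000 UMIs, they were found in 4 of 687 oligodendrocytes for the G2/M list (0.582%) and in 0 for the S list. No member is called cycling from these shares.

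One PBS member stood apart. It held 15758 UMIs, with 198 of the 200 Mzb1 UMIs of PBS members and all 36 of Jchain, the chain that joins secreted antibodies, and 1 Cd79a and 3 Cd79b UMIs. It also held 2441 of 2488 UMIs of ENSRNOG00000034190 and 6109 of 6112 of ENSRNOG00000058590. Tnfrsf17, the plasma cell survival receptor, had 2 UMIs there and Derl3 1, whereas Xbp1, Prdm1 and Sdc1 had 0. Library sums of the PBS members, of which it held 65.6% of the UMIs, mostly measure this cell.

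Library comparisons within members are given with and without it. Between G-HD and PBS members, 132 of 358 measured genes were at least 2-fold higher in G-HD (36.9%) and 21 were lower (5.87%), and the median of all was 0.80. Without that cell, 39 of 332 genes were higher and 15 lower, and the median was 0.04. Of the genes past 2-fold, 86.3% were higher in G-HD, or 70.3% where every cell weighed the same. Stmn1 had 157 UMIs in 10 G-HD members and 0 in PBS members, at least 10.2-fold higher by a bound of 3 UMIs, or 3.49-fold without the cell. Dus2 had 87 UMIs in G-HD and 0 in PBS members and the linker histone H1f4 85 UMIs in G-HD and 0 in PBS members, at least 5.63-fold and 5.50-fold higher, or 1.94-fold and 1.89-fold without the cell. Hmgb2 was higher at a log2 ratio of 2.98, or 1.69 without the cell, and 1.03 where every cell weighed the same. Of its 343 G-HD UMIs, 125 lay in 1 G-HD cell. It was found in 25 of 55 G-HD and 4 of 6 PBS members. Mzb1 (-4.60), Hsp90b1 (-4.12), Hspa5 (-3.06) and Ssr4 (-2.78), which serve protein folding and translocation in the endoplasmic reticulum, were lower in G-HD. Without the cell their log2 ratios were 0.39, -0.04, -1.30 and 0.46. Of 7 measured B identity genes 5 were higher in G-HD, with a median of 1.32 beside 0.80 for all genes. Cd79a and Cd79b of the rule are among the 7. Without the cell 1 of the 7 was higher, and their median was -0.05. Vpreb3 then stood at 1.01 (153 UMIs against 5), Fcrla at 0.87 and Spib at -0.18.

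Between MPG-HD and PBS members, 70 of 127 measured genes were higher in MPG-HD (55.1%) and 10 were lower (7.87%), with a median of 1.05. Without that PBS cell, 14 of 109 were higher and 3 lower, with a median of 0.39. Of the genes past 2-fold, 87.5% were higher in MPG-HD, or 50% where every cell weighed the same. RT1-Da had 111 UMIs in 5 of 7 MPG-HD members and 26 UMIs in 3 of 6 PBS members (log2 ratio 2.24, or 1.41 without the cell). RT1-Ba stood at 2.15, or 2.10 without the cell. Plac8 stood at 2.07 and the actin-sequestering Tmsb4x at 1.77, which became 0.55 and 0.39. Mzb1 (-4.59), Hsp90b1 (-3.50), Ssr4 (-3.59) and the chaperone Calr (-3.69) were lower in MPG-HD, with 198, 104, 57 and 45 of their PBS UMIs in that cell. Of 4 measured class II genes, 3 were higher, with a median of 1.99 beside 1.05 for all genes. Without the cell 2 of the 4 were higher, with a median of 1.15; RT1-Db1 then stood at 0.89 and Cd74 at -0.10. At 2 or more UMIs of both Cd79 genes RT1-Da stood at 0.83, on only 2 MPG-HD and 5 PBS members.

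MPG-HD members were also set against G-HD members, without PBS. Of 357 measured genes, 9 were at least 2-fold higher in MPG-HD (2.52%) and 54 were lower (15.1%), with a median of -0.06. All 5 measured class II genes were higher in MPG-HD, with a median of 1.27. RT1-Da had 111 UMIs in 5 of 7 MPG-HD members and 239 UMIs in 16 of 55 G-HD members (log2 ratio 1.41), and RT1-Ba (1.52), RT1-Db1 (1.15), RT1-Bb (1.27) and Cd74 (1.04) were alike. At 2 or more UMIs of both Cd79 genes, RT1-Da (0.68), Cd74 (0.77) and RT1-Db1 (0.43) stood under 2-fold. That setting left only 2 MPG-HD members, against 32 G-HD members. Vpreb3 had 2 UMIs in 1 MPG-HD member against 153 in 42 G-HD members (-3.47). The chromatin protein Dek (-3.62) and Akap12 (-3.02) were lower, and the adaptor Dok3 had 0 UMIs against 58, at least 3.35-fold lower. Of 7 measured B identity genes, Cd79a and Cd79b of the rule included, 4 were lower in MPG-HD, with a median of -1.29. The homing receptor Cxcr4, found in 3 of 7 members of MPG-HD, 44 of 55 of G-HD and 3 of 6 of PBS, was lower in MPG-HD at -1.91. These comparisons share libraries with one another, and they rest on 7 cells in MPG-HD and 6 in PBS, with 45.7% of the MPG-HD UMIs in 1 cell.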

How the data were processed

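Single-cell RNA was measured in 3 libraries, 1 per treatment, and groups were taken from the treatment label. The authors deposited raw UMI counts per gene and barcode for 25199 features with rat Ensembl identifiers, per the file headers. Cell Ranger 3.0.2 and mouse builds are named by the submitters' processing notes, whereas the matrix header gives 3.1.0. Which rat build was used is not stated, and all coordinates come from RefSeq. The libraries held 2339 (MPG-HD), 2619 (G-HD) and 1513 (PBS) barcodes with 23988263, 26289759 and 16081082 UMIs.

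Members were found by the stated rule (Python 3.11.15, NumPy 2.4.6). Members, gene lists and comparisons were chosen with earlier results of these data known. Counts were summed over the cells of a group and scaled to CPM. A gene was measured with at least 50 UMIs in both groups together, and log2 ratios used a pseudocount of 20 CPM. Where the groups differed in summed UMIs, a gene found only in the smaller sum needed a higher CPM to be measured. Genes of the rule, of the stage lists or of the class II division were left out of the comparison that they define. Named genes were the 20 highest in members among genes in at least 20% of them, the 10 highest and lowest of the comparisons within the lineage, the 4 highest and lowest of each library comparison by the interval bound nearest 1, and genes of the 27 lists; features without a symbol and mitochondrial, ribosomal protein and haemoglobin genes were left out. Shares carry exact binomial and ratios exact conditional intervals (SciPy 1.17.1). A group at 0 was given 3 UMIs as a bound. The ratio code was tested on simulated data. The class II division, the comparison with Cd3-excluded cells and the removal of the PBS cell were added after seeing the data.

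Scrublet (Scanpy 1.11.5, expected rate 6%) called 12 of the 5815 cells (0.206%), too few to regard the calls as usable. No cell was removed as a doublet, and the top 6% of scores were left out as an alternative; 1 member was among them. Other alternatives covered the cell filter, each exclusion of the rule, clustering (Leiden at resolution 0.8, leidenalg 0.10.2), thinning, pseudocounts of 5 and 50 CPM, equal cell weight, and a minimum of 20 UMIs. Some genes of the lists are not reported here.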

Additional observations from a re-analysis of the deposited data

How the results depend on the processing

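No paired analysis was possible because each treatment had 1 library. Some alternatives were chosen after seeing the data: those on the deepest PBS member, those on the Cd3 exclusion for gene comparisons, and all for the class II division. Over all alternatives, 79 shares moved by less than their interval and 11 by more, and 73 gene counts stayed within 1.5 times and 37 did not. Of the named genes' ratios, 707 kept their direction without falling from 2-fold or more to under it, 27 fell so and 8 turned. Changes in size that stayed past 2-fold were not counted, such as Hmgb2 for G-HD over PBS, from 2.98 to 1.03 at equal cell weight. Genes of the library comparisons were named only if equal cell weight kept their direction, so that setting could not turn them. The causes of the shifts were not tested, apart from fewer cells or genes by construction.

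For shares, at least 2 UMIs of both Cd79 genes gave 0.0956% in MPG-HD and 1.36% in G-HD, whole clusters gave 4.26% in G-HD, and no Cd3 exclusion gave 3.37% in G-HD. The early share of members was 4.41% at 3 UMIs, 26.4% in the cluster and 24.5% with no Cd3 exclusion, and the late share was 14.7% at 3 UMIs. The G2/M share was 30.9% and the S share 61.8% at 1 UMI, and the S share was 4.48% when thinned.

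For genes at least 2-fold higher and lower, members over other cells had 1532 and 2932 at a pseudocount of 5 CPM, and 363 and 551 at 50 CPM. A minimum of 20 UMIs gave 57 and 91 for early over late, 228 and 71 for class II-poor over class II-rich, 385 and 54 for G-HD over PBS, 33 lower for MPG-HD over PBS, and 35 and 231 for MPG-HD over G-HD. At least 2 UMIs of both Cd79 genes gave 32 and 10 for class II-poor over class II-rich and 23 and 7 for G-HD over PBS. The same setting gave 20 and 5 for MPG-HD over PBS and 14 higher for MPG-HD over G-HD, on only 2 MPG-HD members. Equal cell weight gave 52 higher for G-HD over PBS and 8 higher for MPG-HD over PBS. No Cd3 exclusion gave 19 higher for early over late, 137 for class II-poor over class II-rich and 217 for G-HD over PBS, and 123 lower for MPG-HD over G-HD. Without the deepest PBS member there were 39 higher for G-HD over PBS, 14 and 3 for MPG-HD over PBS, and 14 lower for class II-poor over class II-rich. Class II-poor over class II-rich within G-HD had 40 and 12. Leaving out, for each gene, the cell with most of its UMIs in each group gave 14 lower for class II-poor over class II-rich, 6 lower for G-HD over PBS, 15 and 3 for MPG-HD over PBS, and 82 lower for MPG-HD over G-HD.

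Leaving out that cell also turned log2 ratios: Mzb1 to 0.31 and Ssr4 to 0.27 for G-HD over PBS, and Mzb1 to 0.081 and Hsp90b1 to 0.78 for MPG-HD over PBS. By construction it takes a larger part of 6 or 7 cells than of 55, so nothing is drawn from its shifts between libraries. With no Cd3 exclusion, early over late turned for Btg1 (-0.26), Cnp (-0.13), Fcrla (-0.19) and Spib (-0.28). With 7 members in MPG-HD and 6 in PBS, depth and cell number limit all library comparisons.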

Other observations

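A second PBS cell was picked for the most Mzb1 UMIs among cells that were neither members nor Cd3-excluded. Like the PBS member with the most UMIs, it also held Jchain and ENSRNOG00000034190. It was not a member because it had 0 UMIs of Cd79a. It held 22063 UMIs, with 284 of Mzb1, 78 of Jchain, 3 of Cd79b and 2605 of ENSRNOG00000034190, and 0 of Cd3g and Csf1r. It held 20 UMIs of ENSRNOG00000058590, against 6109 in the member.

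Clustering without the rule put 66 of the 68 members in one cluster of 121 cells, 13 in MPG-HD, 100 in G-HD and 8 in PBS. That cluster also held 22 of the 26 Cd3-excluded cells and 33 cells that the rule left out for other reasons.

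Of 18 measured interferon response genes, 1 (Mx1, log2 ratio 1.12) was at least 2-fold higher and 5 were lower in members than in other cells. Their median was -0.35. Interferon-induced Ifi27 (-3.17) and Ifitm3 (-3.01) were lowest of the 18. Over all measured genes, 6% were higher and 10% lower, with a median of -0.11.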
